A study of Arabidopsis thaliana with 8 samples.

Results

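Sulfate taken up by plants is activated to adenosine 5'-phosphosulfate (APS), and APS reductase, a plastid enzyme, reduces it to sulfite on the way to cysteine, methionine and glutathione. APS reductase is known as a point of control of the pathway, and its transcripts are known to respond to sulfur supply, light and sugars. Another set of transcripts accumulates when sulfur runs short and serves as a readout of sulfur starvation.

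The genes described here are 7 members of these sets, taken by probe set and gene name from the 22746 probe sets of the ATH1 array that are not controls. The APS reductase genes are APR1, APR2 and APR3. The starvation markers are SDI1 and SDI2 (sulfur-deficiency induced proteins, known as repressors of glucosinolate synthesis), LSU1 (a small protein of the family named for its response to low sulfur) and BGLU28 (a beta-glucosidase linked to glucosinolate breakdown under sulfur shortage). Each gene is read by 1 probe set: 255284_at for APR1, 264745_at for APR2, 254343_at for APR3, 248676_at for SDI1, 261177_at for SDI2, 252269_at for LSU1 and 267389_at for BGLU28. The platform's gene table pairs 2 of the 7 probe sets with a gene, AT1G04770 (SDI2) and BGLU28 (AT2G44460). The other 5 pairings came with the list of members, and the RefSeq gene table gives their loci by name as AT5G48850 (SDI1), AT3G49580 (LSU1), AT4G04610 (APR1), AT1G62180 (APR2) and AT4G21990 (APR3).

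RNA came from developing leaves, insertions 19 to 21, of Arabidopsis thaliana Col-0 harvested at 0 h. The elevated group holds 4 samples whose treatment is labelled as elevated, with CO2 as the gas where one is named. Only the text on replicate 1 states a level, 750 ppm, and a stay of 24 h in a cuvette to adjust before harvest. For replicate 4 the treatment is called elevated and the gas goes unnamed. The not-elevated group holds 4 samples whose labels do not name elevated CO2, and its replicate 1 has another title code and a letter where the remaining 3 are called control. All plants grew on compost at 20 °C, 50% humidity and 10 h of light, and the growth notes of all 8 arrays, the elevated ones included, describe a normal atmosphere. Whether replicates stem from different plants is not stated, and the p-values therefore cover sample-to-sample spread that could be technical.

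Signals of at least 20 units made up 66.1% to 69.6% of the probe sets on the elevated arrays and 66.1% to 68.5% on the not-elevated arrays. The 3'-to-5' signal ratio of the actin control, a sign of RNA quality, was 4.18 to 6.19 on the elevated arrays and 4.15 to 6.80 on the not-elevated arrays, and that of the GAPDH control was 1.10 to 1.43 on the elevated arrays and 1.03 to 1.61 on the not-elevated arrays. RCA (Rubisco activase), the 1 leaf mesophyll marker of 6 that the gene tables name, read 3157 to 3700 units on the elevated arrays and 2333 to 3434 on the not-elevated arrays. The 2 named root markers of 4 summed to 24.5 to 43.4 units on the elevated arrays and 25.8 to 30.3 on the not-elevated arrays. The guard cell regulator FMA, 1 of 4 listed guard cell markers, read 56.5 to 73.7 units on the elevated arrays and 49.2 to 75.3 on the not-elevated arrays. For 3 of the 7 marker lists the gene tables name no probe set.

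The comparison asks whether young leaves of the elevated group differed from those of the not-elevated group in these transcripts. APR3 and SDI2 were lower on all 4 elevated arrays than on any not-elevated array, and APR1 and BGLU28 each read below the lowest not-elevated array on 3 of the 4. For APR2, SDI1 and LSU1 the ranges of the groups overlapped widely. In whole leaves, less RNA per cell and fewer of the cells that hold a transcript cannot be told apart. No member passed the threshold of an adjusted p of 0.05 in limma, which 0.314% of the 15296 probe sets tested did. Of the 6 members tested, 3 (APR3, SDI2 and APR1) had an unadjusted limma p under 0.05, against 11.1% of all probe sets tested. Because the members were chosen with earlier results of these data known, this count is a description only. LSU1 was left out of that test because its mean signal was under 20 units. The plot of the members' signals shows each array's value.

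**Figure D1:**
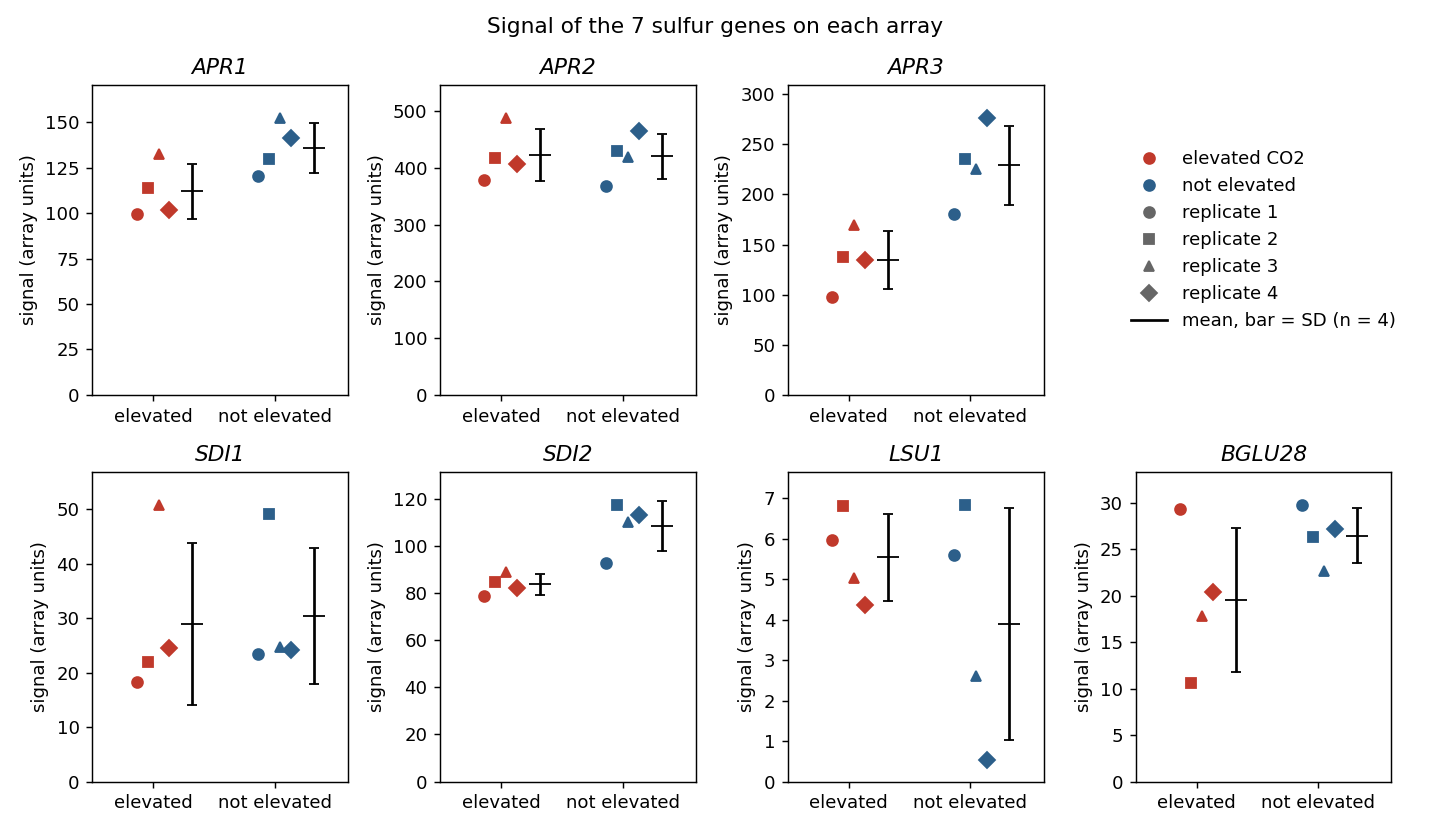
Signal in array units of the 7 sulfur genes on each of the 8 arrays, elevated CO2 on the left and not elevated on the right of each panel. Marker shapes give the replicate number, and the bar beside the points is the mean with its SD (n = 4). The groups do not overlap for APR3 and SDI2 and overlap for the other 5 genes.

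Among the APS reductases, APR3 had the largest difference between the groups. Its signal was 97.6, 137, 169 and 135 units in elevated replicates 1 to 4, against 180, 235, 226 and 276 units in not-elevated replicates 1 to 4. All elevated arrays lay below all not-elevated arrays, with the closest approach between elevated replicate 3 and not-elevated replicate 1. The mean was 135 ± 29.2 units in the elevated group and 229 ± 39.4 units in the not-elevated group (SD, n = 4 each), 41.2% lower in the elevated group. On the log2(signal + 10) scale, which understates the change of dim genes, the difference was -0.73 ± 0.15 (SE), with a 95% confidence interval of -1.05 to -0.41. Its unadjusted limma p was 0.000228, the 54th smallest of 15296, and its limma adjusted p was 0.0647, just outside the threshold that 48 probe sets passed.

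That adjusted p crossed the threshold with other settings, while the direction held in all of them. Leaving out not-elevated replicate 1, the array with the deviating label, gave 0.0172, and leaving out elevated replicate 3 gave 0.0260. It was 0.0448 when a mean signal of at least 50 units was required and 0.0166 with array weights. Leaving out any array not named above gave 0.102 to 0.203. Over the 16 settings plotted beside the reported one, 4 brought the adjusted p to 0.05 or below and 12 did not. The highest value was 0.208, without a filter on low signals. A fit with the replicate number as a block, which is not plotted, gave 0.0287.

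**Figure D2:**
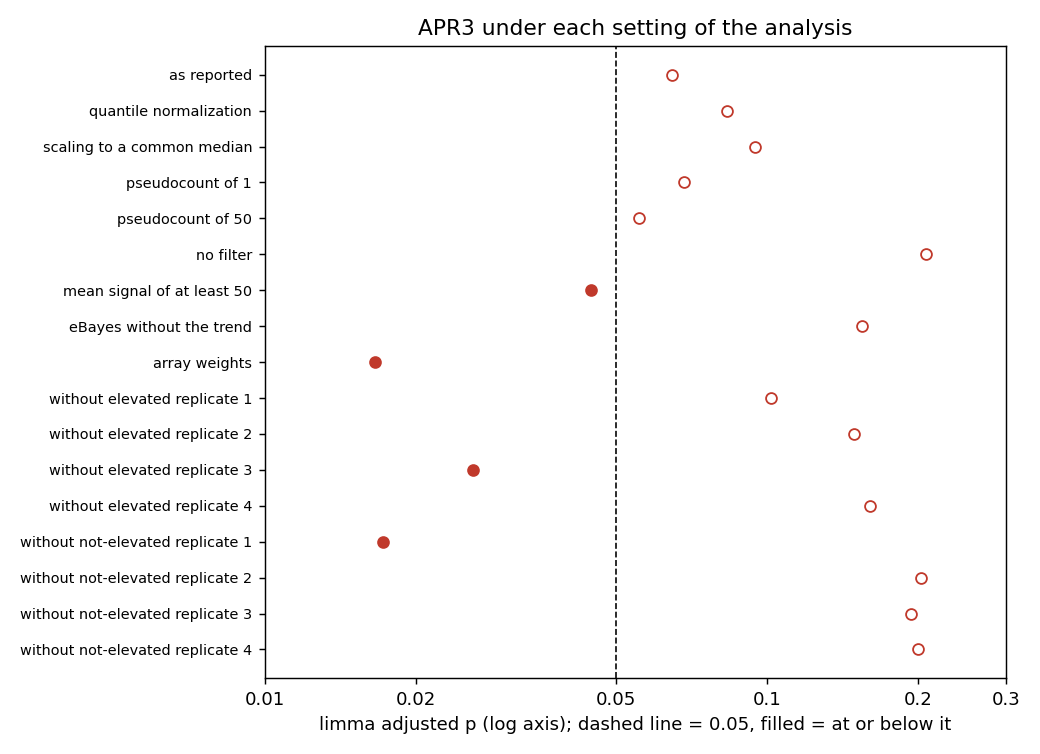
Limma adjusted p of APR3 (log axis) as reported and under 16 other settings, from normalization and filter to each array left out in turn. The fit with a replicate block is not plotted. The dashed line is at 0.05, and the 4 filled points at or below it run from 0.0166 to 0.0448.

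APR1 read 99.5, 114, 133 and 102 units in elevated replicates 1 to 4, against 121, 130, 152 and 142 units in not-elevated replicates 1 to 4. Elevated replicate 3 lay within the not-elevated range and the remaining 3 elevated arrays below it. The means were 112 ± 15.2 units in the elevated group and 136 ± 13.8 units in the not-elevated group, with a log2 difference of -0.26 ± 0.11 (SE; 95% interval -0.49 to -0.03). APR1 had an unadjusted limma p of 0.0283 and an adjusted p of 0.378.

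APR2 read 379, 419, 488 and 408 units in elevated replicates 1 to 4, against 369, 429, 420 and 465 units in not-elevated replicates 1 to 4. The groups covered nearly the same range, and the highest array was elevated replicate 3. Means were 423 ± 46.3 units in the elevated group and 421 ± 39.8 units in the not-elevated group, and the log2 difference was 0.01 ± 0.10 (SE). Its 95% interval of -0.20 to 0.22 does not reach the difference measured for APR3. The sign of this small difference turned with single arrays left out, between -0.06 and 0.06.

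Because the 3 APS reductases were measured on the same arrays, their log2 signals were also subtracted within each array, a comparison chosen after the values were seen. The offset between 2 probe sets has no meaning by itself, so only its shift between the groups is read. APR3 minus APR2 was -1.60 ± 0.17 on the elevated arrays and -0.86 ± 0.11 on the not-elevated arrays (SD, n = 4 each), a shift of -0.74. APR3 minus APR1 was 0.23 ± 0.18 on the elevated arrays and 0.70 ± 0.19 on the not-elevated arrays, a shift of -0.47. APR1 minus APR2 was -1.83 ± 0.05 on the elevated arrays and -1.56 ± 0.12 on the not-elevated arrays, a shift of -0.27. In none of the 3 did the groups overlap, and each had a two-sided exact permutation p of 0.0286, the smallest that 70 splits of 4 against 4 arrays allow, with the same value after adjustment over the 3 comparisons. The 3 comparisons share genes and were picked with the separate values known, so these p-values describe the arrays and are no independent support for a difference between the genes. Whether related APS reductase transcripts bind one another's probes was not tested.

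**Figure D3:**
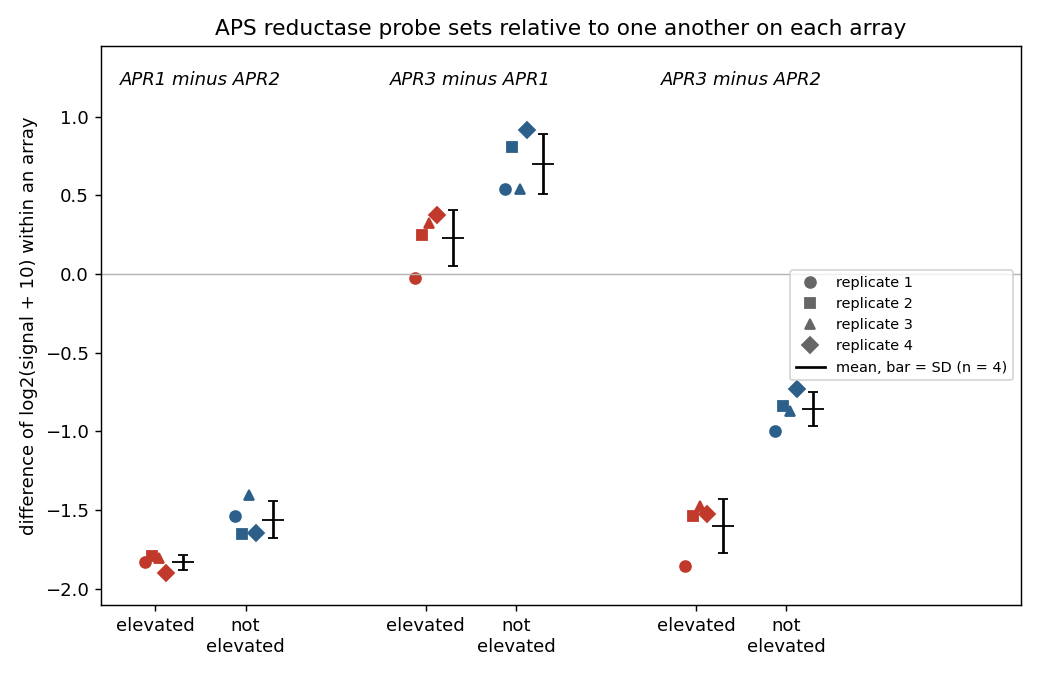
Difference of log2(signal + 10) between 2 APS reductase probe sets on the same array, elevated to the left of not elevated for each pair of genes, with the mean and SD (n = 4). In each of the 3 pairs the 4 elevated arrays lie below the 4 not-elevated arrays, by 0.27 to 0.74 on average.

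Among the starvation markers, SDI2 (AT1G04770) had the smallest p. It read 78.6, 84.8, 89.0 and 82.0 units in elevated replicates 1 to 4, against 92.9, 117, 110 and 113 units in not-elevated replicates 1 to 4. All elevated arrays lay below all not-elevated arrays, and not-elevated replicate 1 was the nearest to them. Means were 83.6 ± 4.38 units in the elevated group and 108 ± 10.7 units in the not-elevated group, 22.9% lower in the elevated group. The log2 difference was -0.34 ± 0.10 (SE; 95% interval -0.54 to -0.13), with an unadjusted limma p of 0.00366 and an adjusted p of 0.188. No setting tried brought the adjusted p of SDI2 to the threshold, and the lowest was 0.0689, without not-elevated replicate 1.

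SDI1, the homolog of SDI2, had nearly equal group means. It read 18.4, 22.0, 50.8 and 24.5 units in elevated replicates 1 to 4, against 23.4, 49.2, 24.8 and 24.2 units in not-elevated replicates 1 to 4. A single array of each group, elevated replicate 3 and not-elevated replicate 2, stood near 50 units while the remaining 6 lay between 18.4 and 24.8. Means were 28.9 ± 14.8 units in the elevated group and 30.4 ± 12.5 units in the not-elevated group, a log2 difference of -0.08 ± 0.24 (SE; 95% interval -0.59 to 0.44; limma adjusted p = 0.942). The difference was -0.31 when elevated replicate 3 was dropped and 0.12 when not-elevated replicate 2 was. It was 0.05 when elevated replicate 1, the lowest array, was dropped with both high arrays kept. Its sign thus turned with single arrays left out, high or low.

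BGLU28 was dim, near the 20 units required for the test. It read 29.4, 10.6, 17.8 and 20.4 units in elevated replicates 1 to 4, against 29.8, 26.3, 22.7 and 27.2 units in not-elevated replicates 1 to 4. Elevated replicate 1 stood with the not-elevated arrays and the remaining 3 elevated arrays below them. Means were 19.5 ± 7.73 units in the elevated group and 26.5 ± 2.92 units in the not-elevated group, a log2 difference of -0.34 ± 0.18 (SE; 95% interval -0.73 to 0.06; limma adjusted p = 0.536). Leaving out elevated replicate 1 gave -0.49 and leaving out elevated replicate 2 gave -0.18, both with adjusted p above the threshold. The difference was -0.14 with a pseudocount of 50.

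LSU1 was at the low end of the array's scale in both groups. It read 5.96, 6.80, 5.03 and 4.35 units in elevated replicates 1 to 4, against 5.60, 6.83, 2.60 and 0.525 units in not-elevated replicates 1 to 4. The elevated arrays lay within the range of the not-elevated ones, which spread more. A two-sided exact permutation test on log2(signal + 10) gave p = 0.343 for a difference of 0.18, which was 0.66 with a pseudocount of 1 and 0.04 with one of 50. Without detection calls, signals this low do not show whether the transcript was present.

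Seen as sets, 5 of the 6 members tested had a log2 difference below 0, against 49.6% of all probe sets tested. The members were chosen with earlier results of these data known. The counts and medians given here therefore describe them and are no support for a shift of sulfur genes. The median difference was -0.34 over the 3 tested starvation markers and -0.26 over the 3 APS reductases, against 0.001 over all probe sets. LSU1, the marker left out by the filter on low signals, had a difference of 0.18. Among the 3 markers tested, SDI1 changed sign with single arrays left out, and BGLU28 was near the filter. The groups did not overlap, with the elevated arrays lower, in 2 of the 6 members, 1 of each set, against 3.22% of all probe sets tested. Both sets thus held 1 gene whose groups did not overlap (APR3, SDI2), though neither gene passed the adjusted threshold. Each set also held 1 gene with nearly equal means (APR2, SDI1), but these 2 genes were not alike. The confidence interval of APR2 (-0.20 to 0.22) excluded the difference of APR3. That of SDI1 (-0.59 to 0.44) included the difference of SDI2 (-0.34), so a difference of that size in SDI1 is not excluded.

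**Figure D4:**
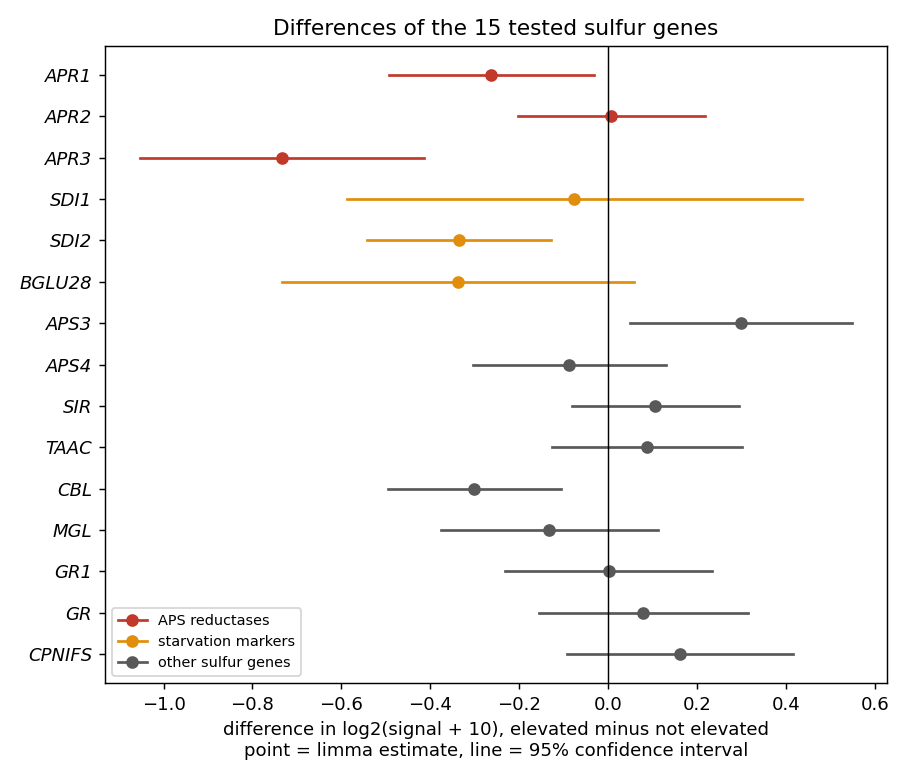
Difference in log2(signal + 10), elevated minus not elevated, of the 15 sulfur genes tested, with limma's 95% confidence interval. Intervals of APR3, SDI2, APR1 and CBL lie below 0, that of APS3 lies above 0, and the other 10 include 0; none of the 15 passed the adjusted threshold.

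Members also varied among replicates of the same group. Over the 8 arrays APR3 and SDI2 had Pearson's r = 0.947 and Spearman's rho = 0.976 (exact permutation p = 0.000422 and 0.000397, adjusted over 21 pairs of members 0.00885 and 0.00833). Without the 2 arrays farthest from the median of SDI2, r was 0.933. Both genes also separate the groups, and with the group means removed r was 0.809 (exact permutation p within groups = 0.0156, adjusted 0.109). After adjustment the relation within groups did not pass 0.05.

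APR2, with nearly equal group means, was also set against APR3. The pooled r of APR2 and APR3 was 0.499 and rho was 0.548 (exact permutation p = 0.210 and 0.171), and r was 0.894 without the 2 arrays farthest from the median of APR2. With the group means removed r was 0.959 (exact permutation p within groups = 0.00868), which did not pass after adjustment over 21 pairs (0.0911). APR1 and APR3 had r = 0.883 and rho = 0.833 (exact permutation p = 0.00479 and 0.0154, adjusted 0.0503 and 0.162), r = 0.751 without the 2 arrays farthest from the median of APR1, and r = 0.765 with group means removed. Of the 21 pairs, 1 passed an adjusted p of 0.05 pooled and none with group means removed, where 11 of the 21 had a positive r. BGLU28 and LSU1 had negative r with each APS reductase once group means were removed, among them -0.542 for BGLU28 with APR1, -0.539 for BGLU28 with APR3 and -0.468 for LSU1 with APR3, and none of these passed. Each point is 1 array, so array scaling and RNA quality are shared by both genes of a pair, and their part in these relations was not tested.

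**Figure D5:**
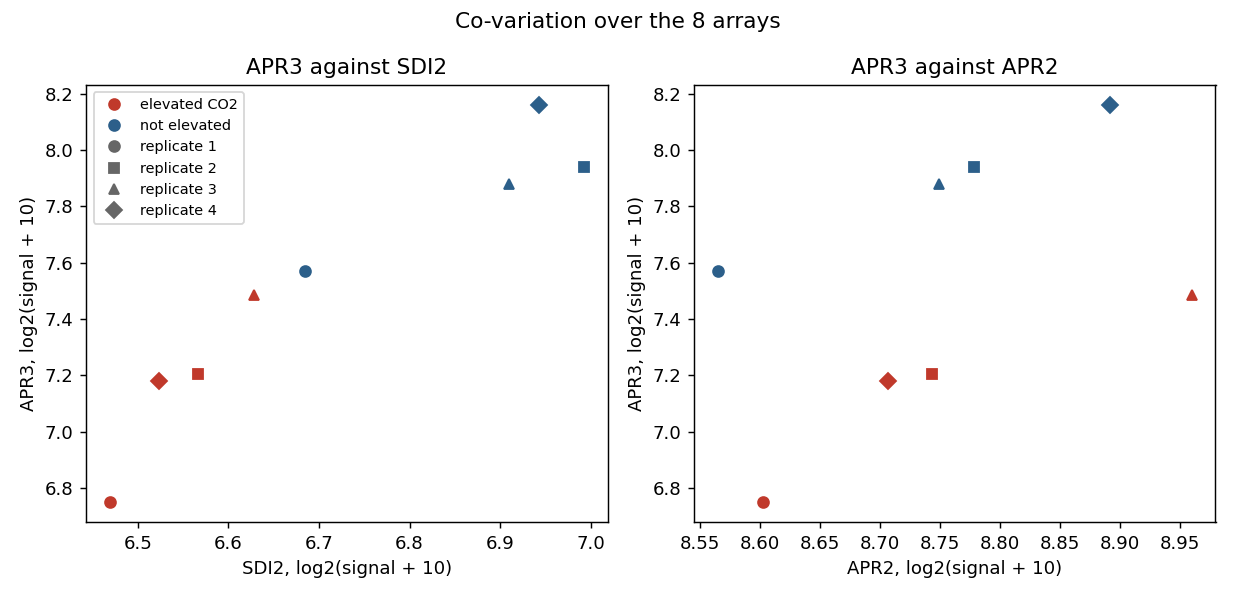
Log2(signal + 10) of APR3 against SDI2 (left) and APR2 (right) on each of the 8 arrays, in red for elevated CO2 and blue for not elevated, with marker shapes for the replicate number. APR3 and SDI2 fall along 1 line over both groups (r = 0.947), whereas against APR2 the elevated arrays lie below the not-elevated arrays at a like APR2 signal.

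Replicate 1 held the same place in both groups for most members. In 5 of the 7 genes (APR1, APR2, APR3, SDI1 and SDI2) the lowest array of the elevated group and the lowest of the not-elevated group were both replicate 1, and in BGLU28 the highest of each group was replicate 1. The 3'-to-5' ratio of the GAPDH control was also highest in replicate 1 of each group, at 1.43 in elevated replicate 1 (1.10 to 1.41 in the remaining 3) and 1.61 in not-elevated replicate 1 (1.03 to 1.28 in the remaining 3). The actin ratio was 4.18 in elevated replicate 1, the lowest of its group, and 5.88 in not-elevated replicate 1, which was not. This pattern was noticed after the values were seen, and the part of RNA quality in it was not tested. How many of all probe sets were lowest in replicate 1 of both groups was not counted. The 5 genes are not separate observations. With group means removed, every pair of them had a positive r, from 0.463 (SDI1 with APR1) to 0.959 (APR2 with APR3).

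Other genes of sulfur metabolism were taken from a list of 69 loci, of which the gene tables name 9 on the array, all of them tested. The platform's gene table pairs 13513 of the 22746 probe sets with 1 gene, so loci it does not name may still have a probe set. None of the 9 passed the threshold in limma, against 0.314% of all probe sets tested, and 2 had an unadjusted limma p under 0.05, against 11.1%. This list, too, was chosen with earlier results of these data known. The log2 difference was negative for 3 and positive for 6 of them (median 0.08), where 49.6% of all probe sets tested were negative. No sulfate transporter, serine acetyltransferase or O-acetylserine thiol-lyase was among the 9, so transport and cysteine synthesis are not analysed here.

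CBL, cystathionine beta-lyase of methionine synthesis, was the only one of the 9 whose groups did not overlap, against 3.22% of all probe sets tested without overlap and lower in the elevated group. It read 253, 331, 278 and 291 units in elevated replicates 1 to 4, against 360, 369, 340 and 354 units in not-elevated replicates 1 to 4. Every elevated array was below every not-elevated array, and elevated replicate 2 came closest. The log2 difference of CBL was -0.30 ± 0.09 (SE), with an unadjusted limma p of 0.00503 and an adjusted p of 0.208. MGL, methionine gamma-lyase, which breaks methionine down, averaged 144 ± 18.1 units in the elevated group and 159 ± 22.6 units in the not-elevated group (limma adjusted p = 0.725).

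ATP sulfurylase makes APS, the substrate of APS reductase. APS3, 1 of its genes, read 102, 148, 117 and 144 units in elevated replicates 1 to 4, against 110, 105, 92.8 and 97.0 units in not-elevated replicates 1 to 4. In the elevated group 3 of the 4 arrays were above all not-elevated arrays and replicate 1 lay among them. Its log2 difference was 0.30 ± 0.12 (SE), opposite in sign to that of APR3, with an unadjusted limma p of 0.0223 and an adjusted p of 0.346. APS4, another ATP sulfurylase gene, averaged 46.6 ± 3.37 units in the elevated group and 50.1 ± 0.978 units in the not-elevated group (limma adjusted p = 0.812). SIR, sulfite reductase, which acts next after APS reductase, averaged 487 ± 48.8 units in the elevated group and 450.3 ± 17.6 units in the not-elevated group (limma adjusted p = 0.708).

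Further along and beside the pathway, differences were small. TAAC (AT5G01500), a plastid nucleotide carrier also known to move the activated sulfate PAPS, had a log2 difference of 0.09 ± 0.10 (SE). The glutathione reductases GR1 and GR, which keep glutathione reduced, had 0.001 ± 0.11 and 0.08 ± 0.11. CPNIFS, the plastid cysteine desulfurase that supplies sulfur to iron-sulfur clusters, had 0.16 ± 0.12. Limma adjusted p-values of these 4 lay between 0.662 and 0.999.

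The tested probe sets with 1 gene whose pattern over the 8 arrays was most like that of the APS reductases, by Pearson's r to the mean of their standardised log2 signals, were AT4G02820 (r = 0.968), AT1G78010 (0.968), AT1G62520 (0.939), AT1G52730 (0.937) and Fes1A (0.937), a cochaperone gene of the heat shock response. The 5 most like the tested starvation markers were AT1G05320 (r = 0.957), AT4G19380 (0.948), AT3G27610 (0.946), AT2G44200 (0.946) and TMT3 (0.936), a vacuolar sugar transporter gene. These are the highest of 8516 correlations per set over 8 arrays and are given as a description. All 10 were lower on average in the elevated group, by 0.22 to 0.58 on the log2 scale. Both mean patterns were themselves lower there, so this direction follows largely from the selection. None passed the threshold (limma adjusted p from 0.190 to 0.583). The tested starvation markers shared little of 1 pattern over the 8 arrays. Pooled r was 0.391 for SDI2 with SDI1, 0.323 for SDI2 with BGLU28 and -0.082 for SDI1 with BGLU28. With group means removed r was 0.631, -0.429 and -0.168 for the same pairs, and none passed after adjustment over 21 pairs.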

How the data were processed

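Leaf RNA carrying biotin was read on 8 ATH1 arrays, as the labels state. The authors deposited 1 linear intensity for each probe set, computed with MAS5 according to the submitters' processing notes; versions and further steps were not given in the sources used here. Each array's mean, after trimming 2% at each end, was 100 units, so a change shared by all transcripts is hidden. After 64 control probe sets were left out, the 15296 of 22746 averaging 20 units or more were tested as log2(signal + 10) with lmFit and eBayes of limma 3.58.1 (R 4.3.3) with a variance trend, without covariates; two-sided p-values were adjusted by Benjamini-Hochberg over all of them. LSU1 and differences within arrays had exact permutation tests over the 70 splits. On simulated arrays of 15296 probe sets, 100 were changed at each size, with noise independent between probe sets. The test recovered 10.4% of those changed 1.25-fold, 56.8% at 1.5-fold and 90.8% at 2-fold, and 6.07% of its calls were false. How many probe sets truly changed in the data is not known, so recovery here may be lower. The number of arrays limits the precision.

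Groups follow the labels' treatment text. No 2 arrays were alike enough to be 1 sample deposited again (highest r 0.986). Named are all members, per pathway list those past the threshold and the 2 with the smallest p, and the 5 nearest patterns per set; the remaining listed genes were few enough to be given too. Members and lists were chosen with earlier results of these data known. A vascular marker list is not reported because its 1 named locus was listed in error. Coordinates and sequences are not used here. Alternatives are normalization, pseudocount, filter, variance trend, array weights, a replicate block and each array left out.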

Additional observations from a re-analysis of the deposited data

Results flagged for a closer look

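Dixon's test was applied to the 4 arrays of each group, for the signals of the sulfur genes and for the RNA control ratios, to find an array standing apart from its group. Of the 36 groups tested, 3 held such an array, where chance gives about 5%. For SDI1 it was not-elevated replicate 2, with 49.17 units against 23.41 to 24.79 units on the remaining arrays of the group. For the glutathione reductase gene GR1 it was not-elevated replicate 1, with 337.3 units against 468.9 to 479.9. For GR, the other glutathione reductase gene, it was not-elevated replicate 4, with 333.7 units against 441.9 to 458.3. The causes were not tested.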

How the results depend on the processing

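SDI2, BGLU28, APR1 and APR3 kept a negative sign and LSU1 a positive one in every setting that gave a value. APR3 passed the threshold when the filter was raised to 50 units (log2 difference -0.73, where fewer probe sets are tested), array weights (-0.72) and the replicate block (-0.73, adjusted p = 0.0287), and was then the 1 sulfur gene past it. With 1 array left out APR3 ran from -0.84 to -0.60, SDI2 from -0.40 to -0.30, APR1 from -0.34 to -0.21, BGLU28 from -0.49 to -0.18, LSU1 from 0.06 to 0.28, SDI1 from -0.31 to 0.12, APR2 from -0.062 to 0.057, GR1 from -0.12 to 0.046 and GR from -0.026 to 0.12, and the number of sulfur genes past the threshold from 0 to 1. With array weights APR2 was -0.0019 and GR1 -0.029. The number of all probe sets past the threshold was 48, against 30 with quantile normalization, 28 with a pseudocount of 1, 1 without a filter, 9 without the trend, 132 with array weights, 50 with the replicate block, and 0 to 132 with 1 array left out; 0 came without not-elevated replicate 3, where limma had 1400 at an unadjusted p under 0.05, and 132 without not-elevated replicate 1. The causes were not tested. Over all probe sets tested, replicate numbers did not pair the arrays: deviations of same-numbered arrays from their group means correlated at -0.18 to -0.04. In 5 of the 7 members replicate 1 was nonetheless lowest in both groups, and pairing in these genes was not tested. The block is given only as another setting. SDI1 and BGLU28 gave no value at 50 units, and LSU1 was recomputed only where the setting bears on its signal. The pseudocount moved the dim genes: with 1 and 50, LSU1 was 0.66 and 0.04, BGLU28 -0.49 and -0.14, and SDI1 -0.11 and -0.03. Signals near or below 20 units (SDI1, BGLU28, LSU1) limit what can be said of those genes.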
